A study of Homo sapiens with 12 samples.

Results

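JUN and BTG1 are 2 of the 479 genes on which clusters of crosslinked reads were listed for the human translation initiation factor eIF3. Their clusters were taken by gene name from the deposited table, which gave 8 of 1477 clusters, 1 for each gene in each of 4 eIF3 subunits. Libraries had been made for eIF3g, eIF3d, eIF3b and eIF3a, 3 per subunit and 12 in all, by PAR-CLIP, in which cells are fed a modified uridine, ultraviolet light ties it to the protein it touches, and sequencing shows the tied base as a T-to-C change. The cells were 293T, a transformed human embryonic kidney line grown in serum, given 100 µM 4-thiouridine for 14 h and crosslinked on ice at 0.15 J per square cm. Per the labels, every library of the 4 subunits came through the same antibody, raised against eIF3b, and after RNase T1 digestion the crosslinked complexes were separated by size on a gel and excised. No library without crosslinking, without antibody or of input RNA was analysed here. The table gives 1 value per cluster and subunit with no column for the replicate, so the spread between libraries is not known for any value and no difference between subunits could be tested. Intervals given below are exact 95% intervals for counting error only, and reads from amplified libraries are not independent molecules. Over all clusters, the subunits held 62405 reads in eIF3g, 24150 in eIF3d, 19187 in eIF3b and 15132 in eIF3a, and since only reads inside clusters are tabulated, the depth of the libraries is unknown.

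eIF3 is a multi-subunit complex that joins the small ribosomal subunit and helps it to load on the 5′ end of mRNA. JUN encodes c-Jun, a transcription factor of the AP-1 family that is induced within minutes by growth factors and drives entry into the cell cycle. BTG1 encodes an anti-proliferative protein of the BTG/TOB family, which binds the CCR4-NOT deadenylase and slows growth. Both are known from published work on this cell line as mRNAs that eIF3 contacts in the 5′ UTR, with translation of JUN activated and translation of BTG1 repressed through the contact. Both genes were chosen with earlier results of these data known, so that work is not taken here as independent of the values below. The subunit eIF3d was later described as binding the cap of the JUN mRNA, and eIF3g carries an RNA recognition motif. The question for these genes was where each subunit touched them and how much of each subunit's reads they took.

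Both genes had a single cluster per subunit, annotated by the authors as 5′ UTR, and the clusters of the 4 subunits lay on top of each other. The JUN cluster (ENSG00000177606) lies on the minus strand of chromosome 1 in build hg19. It ran from 59249572 to 59249605 in eIF3g, eIF3b and eIF3a, a width of 33 nt as end minus start. In eIF3d it ended at 59249600 and was 28 nt wide. On a minus strand the higher coordinate is the 5′ side of the RNA, so the subunits shared the 3′ border to the base and eIF3d stopped 5 nt short on the 5′ side. The shared stretch was 28 nt, 84.8% of the span over the subunits.

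The BTG1 cluster (ENSG00000133639) lies on the minus strand of chromosome 12. It ran from 92539487 to 92539570 in eIF3g, from 92539489 to 92539570 in eIF3d, from 92539487 to 92539569 in eIF3b and from 92539487 to 92539600 in eIF3a, with widths of 83, 81, 82 and 113 nt. A stretch of 80 nt from 92539489 to 92539569 was common to the 4 subunits, 70.8% of the span. On the 3′ side the borders differed by 2 nt, and on the 5′ side the eIF3a cluster reached 31 nt beyond the innermost one. The positions are printed as deposited, and their counting base (0 or 1) is not stated in the labels or the table.

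BTG1 stood out by width. The median width was 24.0 nt over all clusters, and 10 of the 1477 clusters were 80 nt or wider, 4 of them those of BTG1. Such width was not particular to BTG1. The 5′ UTR clusters of TSC22D3 were 81 nt wide in eIF3g, 84 in eIF3d and 83 in eIF3b. Its eIF3a cluster was the widest of the 1001 clusters in 5′ UTRs, the widest of another gene being 94 nt, in AMOT for eIF3b. In width, BTG1 exceeded 399 of the 400 other clusters of eIF3g, 401 of 402 in eIF3d, 294 of 297 in eIF3b and 374 of 374 in eIF3a. JUN was wider than 349, 326, 230 and 335 of the same clusters, which is between 77.4% and 89.6% of them. Agreement of borders as such was not particular to these genes: of the 172 loci with 1 cluster in each subunit, 86 had the same 3′ border in all 4, 58 had both borders identical, and the median locus shared 89.8% of its span.

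**Figure D1:**
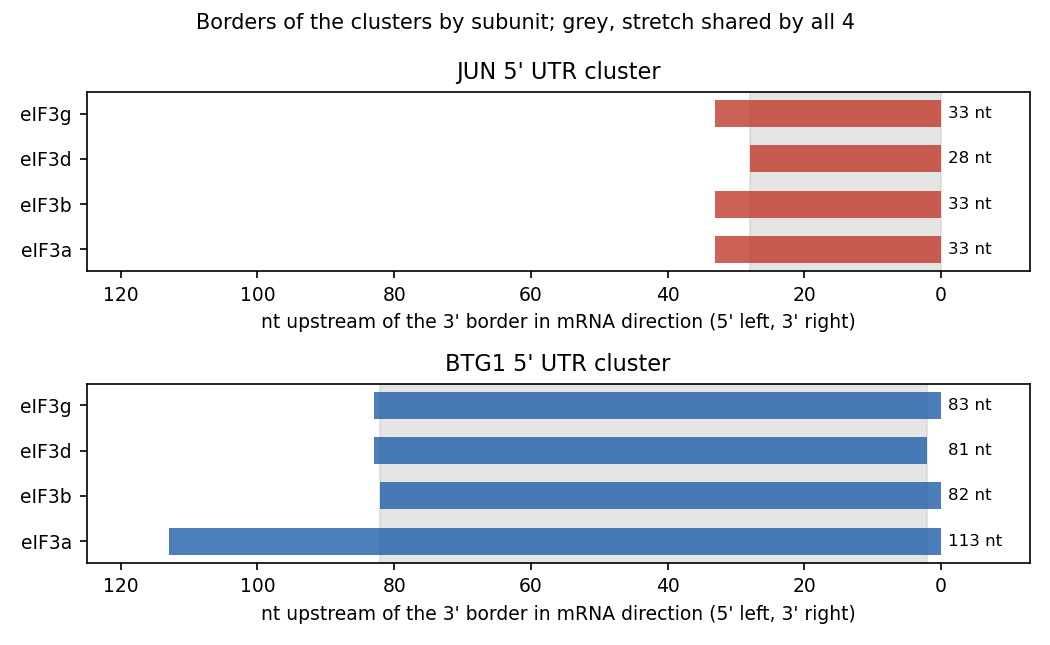
Borders of the JUN (top, red) and BTG1 (bottom, blue) clusters, 1 bar per subunit, with the distance in nt upstream of the 3′ border on the x axis in the direction of the mRNA. The grey band is the stretch shared by all 4 subunits, 28 nt in JUN and 80 nt in BTG1; eIF3d is shorter on the 5′ side in JUN, and eIF3a is longer on the 5′ side in BTG1.

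In reads, as deposited and not scaled, JUN held 1735 in eIF3g, 286 in eIF3d, 100 in eIF3b and 138 in eIF3a. The eIF3g value was by far the highest, and the eIF3b value the lowest. JUN was the 7th of 401 clusters by reads in eIF3g, between a cluster of MT-RNR2, the mitochondrial large ribosomal RNA, with 2159 reads and an intronic cluster of RBMX, an RNA-binding protein, with 1179. Its rank was 10 of 403 clusters in eIF3d, between RPPH1-201, the ribonuclease P RNA, with 296 reads and MORF4L2, a chromatin protein, with 225. In eIF3b it was 36 of 298, between TSC22D3, a glucocorticoid-induced leucine zipper gene, with 103 reads and an intron of PKNOX2, a homeobox gene, with 92. In eIF3a it was 16 of 375, between SNRPA, a spliceosomal protein, with 141 reads and U2AF2, a splicing factor, with 136. Among 5′ UTR clusters alone JUN ranked 2 of 274 in eIF3g, 4 of 277 in eIF3d, 21 of 196 in eIF3b and 10 of 254 in eIF3a.

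BTG1 held 3109 reads in eIF3g, 2256 in eIF3d, 372 in eIF3b and 684 in eIF3a. Here eIF3g and eIF3d were both high and eIF3b was lowest. Its rank was 5 in eIF3g, 3 in eIF3d, 9 in eIF3b and 1 in eIF3a. The cluster next above it was in an intron of GNL3, which encodes nucleostemin (4929 reads in eIF3g), in the EIF3A coding sequence, itself an eIF3 subunit gene (2599 in eIF3d), and in the pseudogene RNA5-8SP2 (395 in eIF3b). Next below it came MT-RNR2 in eIF3g, UBE2D2, a ubiquitin-conjugating enzyme, with 589 reads in eIF3d, MLF2 with 345 in eIF3b and an intron of LIMCH1, an actin-associated gene, with 677 in eIF3a. Among 5′ UTR clusters BTG1 was first in eIF3g, eIF3d and eIF3a and second in eIF3b.

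**Figure D2:**
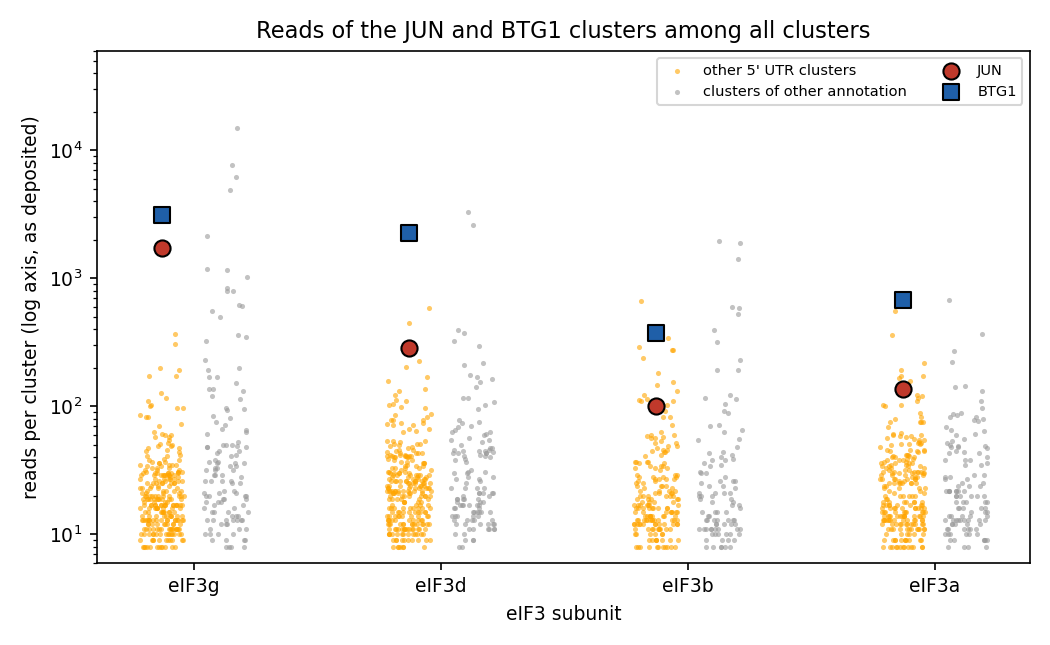
Reads per cluster on a log axis for the 4 subunits, with JUN as red circles, BTG1 as blue squares, other 5′ UTR clusters in orange and clusters of other annotation in grey, each small point 1 cluster. In eIF3g, JUN with 1735 and BTG1 with 3109 reads lie far above the next 5′ UTR cluster, which had 368 reads, while in eIF3b BTG1 with 372 and JUN with 100 lie among the other 5′ UTR clusters.

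As a share of the reads in all clusters of the subunit, JUN took 2.78% in eIF3g (2.65 to 2.91), 1.18% in eIF3d (1.05 to 1.33), 0.521% in eIF3b (0.424 to 0.634) and 0.912% in eIF3a (0.767 to 1.08). BTG1 took 4.98% in eIF3g (4.81 to 5.16), 9.34% in eIF3d (8.98 to 9.72), 1.94% in eIF3b (1.75 to 2.14) and 4.52% in eIF3a (4.19 to 4.86). By this share JUN was highest in eIF3g and BTG1 in eIF3d, but over 5′ UTR reads alone BTG1 took 24.4% in eIF3g and 18.8% in eIF3d. The denominators differ in kind: noncoding RNA made up 39165 of the eIF3g reads, and EIF3A made up 6132 of the eIF3d reads and 5464 of the eIF3b reads.

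Within 5′ UTR clusters the pair weighed more. The sum of JUN and BTG1 was 4844 of 12759 5′ UTR reads in eIF3g, 38.0% (37.1 to 38.8), and 2542 of 12023 in eIF3d, 21.1% (20.4 to 21.9). It was 472 of 8397 in eIF3b, 5.62% (5.14 to 6.14), and 822 of 9834 in eIF3a, 8.36% (7.82 to 8.92). Thus 38.0% of the 5′ UTR reads of eIF3g lay in 2 of its 274 5′ UTR clusters. Of T-to-C conversions in 5′ UTR clusters the pair held far less, 436 of 8565 in eIF3g, 5.09% (4.63 to 5.58). That share was 2.51% in eIF3d (1.79 to 3.44), 1.84% in eIF3b (1.57 to 2.14) and 1.64% in eIF3a (1.39 to 1.92). The strongest 5′ UTR cluster of any other gene had 368 reads in eIF3g, in TPT1, 589 in eIF3d, in UBE2D2, 665 in eIF3b, in DDX39B, and 554 in eIF3a, in UBE2D2. TPT1, a translationally controlled protein, and DDX39B, an RNA helicase of mRNA export, were picked with their values in view, as was AMOT above. The median of the other 5′ UTR clusters was 19.0 reads in eIF3g, 22.0 in eIF3d, 18.0 in eIF3b and 21.0 in eIF3a, so the large share of reads in eIF3g did not go with a higher typical cluster.

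The next comparison set the subunits against each other at the same locus. Because library depth is unknown, each ratio is read by its place among all loci listed for both subunits of a pair, a place that no scaling factor can change. Overlapping clusters on the same strand were joined into 1 locus, and 2-fold was taken as a mark of size. JUN had 1735 reads in eIF3g against 100 in eIF3b, a ratio of 17.4 (14.2 to 21.4), above 224 of the 232 other loci of that pair. Against 138 reads in eIF3a its eIF3g reads gave 12.6 (10.6 to 15.1), above 279 of 283 loci, and against 286 in eIF3d they gave 6.07 (5.35 to 6.90), above 279 of 292. Loci at least 2-fold higher in eIF3g were 30.0% of those shared with eIF3b, 21.8% of those shared with eIF3a and 19.8% of those shared with eIF3d, and median log2 ratios were 0.22, 0.00 and -0.03. At least 2-fold lower in eIF3g were 18.5%, 19.7% and 18.8% of the same loci.

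When the set was narrowed to loci whose clusters were all in 5′ UTRs, JUN had the highest eIF3g ratio over eIF3b, above 156 of 156 others, and over eIF3a, above 196 of 196. Over eIF3d it was above 204 of 205. The loci with a higher eIF3g ratio over eIF3b or eIF3a than JUN therefore each held a cluster of another annotation. For eIF3d, JUN gave 2.86 over eIF3b (2.27 to 3.63), above 193 of 229 loci, and 2.07 over eIF3a (1.69 to 2.56), above 252 of 298. Scaled by 5′ UTR reads these were 2.00, just under the 2-fold mark before rounding, and 1.70, so neither passed it. At least 2-fold higher in eIF3d were 28.3% of the loci shared with eIF3b and 19.7% of those shared with eIF3a, and 12.6% and 8.70% were at least 2-fold lower.

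For BTG1 the ratios of eIF3g were 8.36 over eIF3b (7.50 to 9.33), above 218 of 232 loci, and 4.55 over eIF3a (4.18 to 4.94), above 266 of 283. Over eIF3d the ratio was 1.38 (1.30 to 1.46), above 202 of 292 loci and inside the 2-fold mark. The eIF3d cluster of BTG1 held 6.06 times the reads of eIF3b (5.43 to 6.79), above 222 of 229 loci, and 3.30 times those of eIF3a (3.03 to 3.60), above 286 of 298. So both genes lay near the top of the loci for eIF3g over eIF3b and over eIF3a, whereas for eIF3g over eIF3d JUN was at the 95.5th percentile and BTG1 at 69.2.

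Between eIF3b and eIF3a neither gene passed 2-fold. JUN gave 0.725 (0.554 to 0.944) with 100 reads in eIF3b and 138 in eIF3a, above 94 of 228 loci. BTG1 gave 0.544 (0.478 to 0.618) with 372 reads in eIF3b and 684 in eIF3a, above 61 of 228. In this pair 16.6% of loci were at least 2-fold higher in eIF3b and 23.1% at least 2-fold lower, around a median log2 ratio of -0.27. JUN was thus an ordinary locus there. Both genes had the same order of reads, eIF3g over eIF3d over eIF3a over eIF3b, which 22 of the 173 loci listed for all 4 subunits showed, these 2 included.

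**Figure D3:**
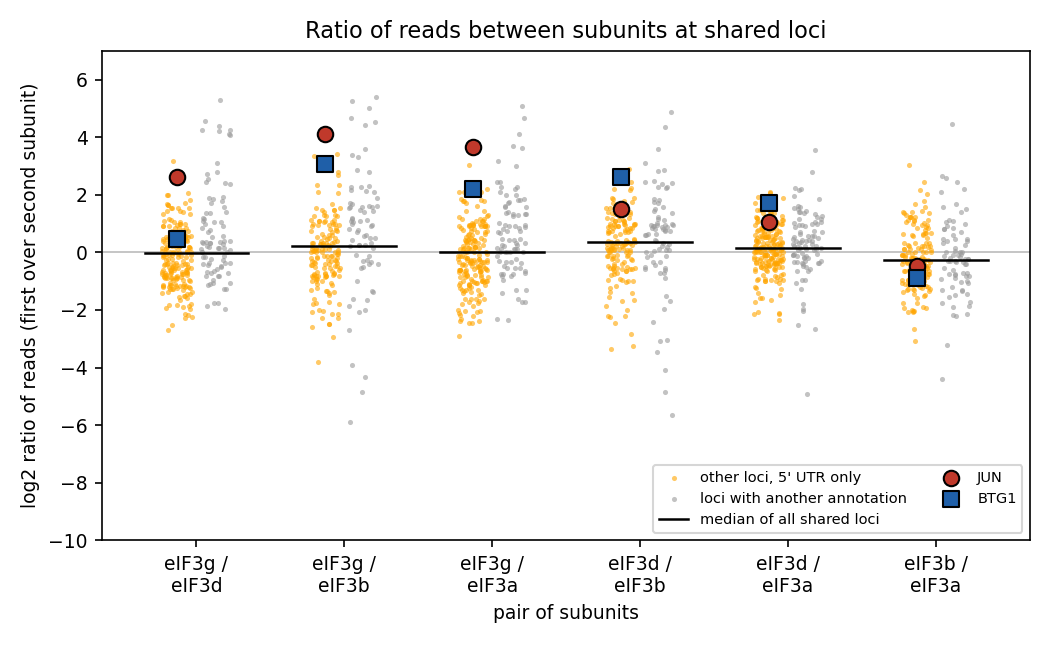
Log2 ratio of reads, first over second subunit, at loci shared by each of 6 pairs of subunits. JUN is shown as red circles, BTG1 as blue squares and other loci with only 5′ UTR clusters in orange. Loci with another annotation are in grey, and the median of all shared loci is a black line. Loci beyond the range of the axis are not drawn. The highest ratios for eIF3g over eIF3d and over eIF3b lie far above JUN, at loci with another annotation. JUN tops the 5′ UTR loci for eIF3g over eIF3b (log2 ratio 4.12) and over eIF3a (3.65), and for eIF3b over eIF3a JUN (-0.46) lies near the median of -0.27 and BTG1 (-0.88) below it.

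JUN and BTG1 came from the same libraries, so their ratio within a subunit does not depend on depth. JUN over BTG1 in reads was 0.558 in eIF3g (0.526 to 0.592), 0.127 in eIF3d (0.112 to 0.143), 0.269 in eIF3b (0.213 to 0.336) and 0.202 in eIF3a (0.167 to 0.243). Per nt of cluster, which allows for the longer BTG1 cluster, JUN had 52.6 reads in eIF3g and BTG1 37.5, a ratio of 1.40 (1.32 to 1.49). On the same per-nt scale JUN had 10.2 and BTG1 27.9 reads in eIF3d (0.367, 0.323 to 0.415), JUN had 3.03 and BTG1 4.54 in eIF3b (0.668, 0.530 to 0.835), and JUN had 4.18 and BTG1 6.05 in eIF3a (0.691, 0.571 to 0.831). In reads per nt JUN was therefore the denser cluster in eIF3g, and BTG1 in eIF3d, eIF3b and eIF3a. The intervals of eIF3g and of eIF3d overlapped with those of no other subunit, and those of eIF3b and eIF3a overlapped with each other. These intervals leave out any spread between libraries.

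T-to-C conversions, which mark crosslinked uridines, put the subunits in another order than reads did, with eIF3d lowest for both genes. Conversions were low in eIF3d in general. The median over all its clusters was 0.182 per read, against 1.02 in eIF3g, 1.05 in eIF3b and 1.02 in eIF3a. JUN had 142 conversions in eIF3g, 20 in eIF3d, 80 in eIF3b and 78 in eIF3a. BTG1 had 294 conversions in eIF3g, 18 in eIF3d, 82 in eIF3b and 74 in eIF3a. In eIF3d, eIF3b and eIF3a the genes thus had nearly the same number of conversions, with JUN over BTG1 at 1.11 (0.558 to 2.23), 0.976 (0.708 to 1.34) and 1.05 (0.757 to 1.47), although BTG1 had the higher read count in each. In eIF3g the ratio of conversions was 0.483 (0.392 to 0.592). How the authors counted a conversion is not stated in the labels or the table, and the number of thymidines in each cluster needs the hg19 sequence, which was not used here.

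Conversions per read were low in both genes. JUN had 0.0818 in eIF3g (0.0689 to 0.0965), 0.0699 in eIF3d (0.0427 to 0.108), 0.80 in eIF3b (0.634 to 0.996) and 0.565 in eIF3a (0.447 to 0.705). BTG1 had 0.0946 in eIF3g (0.0841 to 0.106), 0.00798 in eIF3d (0.00473 to 0.0126), 0.220 in eIF3b (0.175 to 0.274) and 0.108 in eIF3a (0.0850 to 0.136). The medians over all 5′ UTR clusters were 1.03 in eIF3g, 0.20 in eIF3d, 1.06 in eIF3b and 1.00 in eIF3a, so both genes lay below the median in each subunit. The BTG1 value in eIF3d, 18 conversions in 2256 reads, was the lowest of all 1477 clusters. The next lowest was also in eIF3d, where values were low in general. It had 1 conversion in 117 reads (0.00855), inside the interval of BTG1. Of the other 5′ UTR clusters, those below BTG1 were 2 of 273 in eIF3g, 0 of 276 in eIF3d, 1 of 195 in eIF3b and 2 of 253 in eIF3a. For JUN they were 1 of 273, 18 of 276, 14 of 195 and 16 of 253 in the same subunits. These counts include JUN below BTG1 in eIF3g, and BTG1 below JUN in eIF3d, eIF3b and eIF3a.

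The contrast was plain among strong 5′ UTR clusters, those with at least 100 reads. In eIF3g there were 13 of them. The 11 of other genes carried 0.351 to 1.54 conversions per read, and JUN and BTG1 were the 2 below 0.3, a bound chosen after seeing the data. The gap depends on the cut at 100 reads: 5′ UTR clusters of eIF3g with 82 and 63 reads had 0.0488 and 0.159. In eIF3b BTG1 was the 1 cluster of 21 below that bound, while the 19 clusters of other genes had 0.966 or more. JUN, at 0.80 in eIF3b with exactly 100 reads, also lay under these 19, but its interval (0.634 to 0.996) reached past the lowest of them. In eIF3a the clusters below the bound were BTG1 and TPT1 (22 conversions in 172 reads), 2 of 19, and the median of the 17 of other genes was 1.05. In eIF3d the 13 strong 5′ UTR clusters of other genes had 0.0187 to 0.173 conversions per read and 5 to 18 conversions each, so JUN, with 20 conversions, had the most of the 15 and BTG1, with 18, was level with the highest of the others. Among eIF3d clusters of any annotation with at least 100 reads, 23 of the 31 others lay below JUN in conversions per read and 0 below BTG1. Low values of this kind were common outside 5′ UTRs in eIF3g, where 16 of the 41 other clusters with at least 100 reads lay below JUN, and the cluster next below JUN by reads, in RBMX, had 0.0458.

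**Figure D4:**
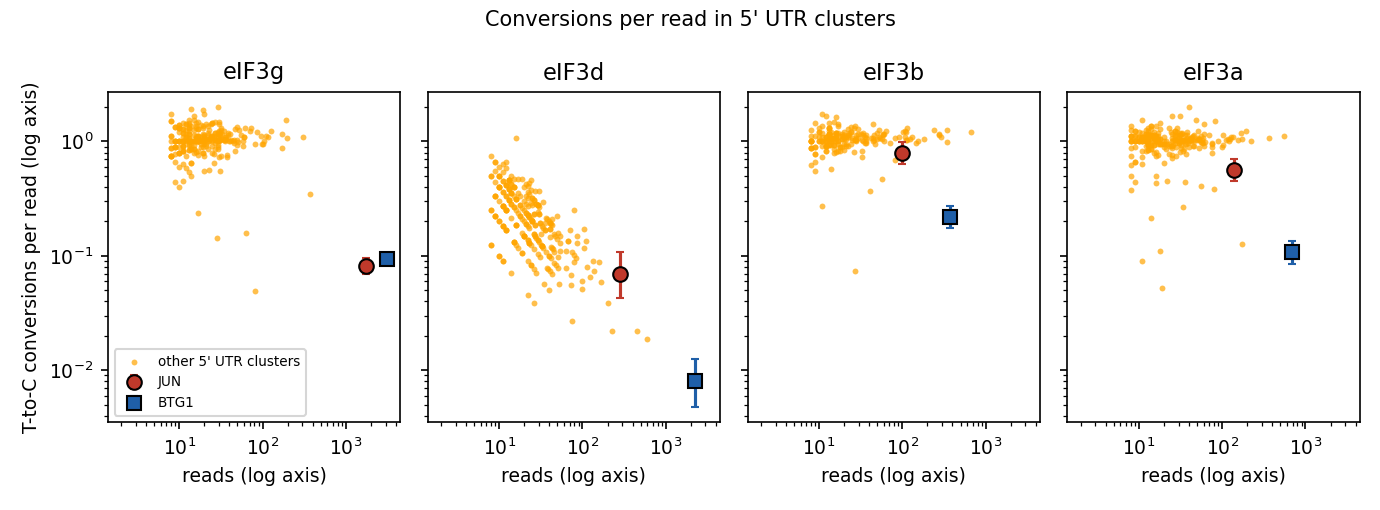
T-to-C conversions per read against reads, both on log axes, for the 5′ UTR clusters of each subunit, with JUN as red circles, BTG1 as blue squares, exact 95% Poisson intervals of the conversions as error bars, and other 5′ UTR clusters in orange. In eIF3g both genes lie at the far right and below 0.1, while the other clusters with at least 100 reads lie at 0.351 or above. A cluster of eIF3g with 82 reads lies at 0.0488. In eIF3d conversions per read are lower in clusters with more reads, and BTG1 is the lowest at 0.00798.

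Most of the 5 loci whose reads varied over the subunits most like those of JUN were noncoding RNA. The share of noncoding RNA among all loci compared was not computed, so whether this is unusual is not known. Likeness was measured as the distance between profiles of log2(reads + 1) over the 4 subunits, each minus its own mean, among 172 other loci listed for all 4. Nearest to JUN were a locus of MT-RNR2 (distance 0.54), the vault RNA VTRNA1-2-201 (0.77), the mitochondrial transfer RNA MT-TP (1.01), the 5′ UTR of ATP1B3, a subunit of the sodium pump (1.05), and RPPH1-201 (1.09). The MT-RNR2 locus had 610 reads in eIF3g, 116 in eIF3d, 24 in eIF3b and 49 in eIF3a. Nearest to BTG1 were RPPH1-201 (0.63), ATP1B3 (0.65), the lincRNA RP6-99M1.2-002 (0.73), the minor spliceosomal RNA RNU11 (0.96) and the 5′ UTR of HNRNPC, an hnRNP protein (0.96). ATP1B3 had 173 reads in eIF3g, 79 in eIF3d, 17 in eIF3b and 21 in eIF3a. JUN and BTG1 were at a distance of 1.55 from each other, which made BTG1 the 13th nearest to JUN and JUN the 19th nearest to BTG1. These distances describe 4 pooled values per locus.

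Relatives and partners of the genes were looked up next, in lists put together with earlier results of these data known. Of all 20056 protein-coding genes of the reference table, 2.21% had a cluster in any subunit and 1.63% had one in the 5′ UTR. Among 42 AP-1 and immediate early transcription factors JUN was the 1 gene with a cluster, so 0 of the other 41, JUNB, JUND, FOS and MYC included, were listed. Of 24 genes of the BTG and TOB family and the deadenylases it recruits, BTG1 and PABPC4, a poly(A)-binding protein with 23 reads in eIF3d alone, had a cluster, and BTG2, TOB1 and the CNOT genes had none. With JUN and BTG1 counted, the listed shares were 2.38% and 8.33%, beside 2.21% of all genes. At that background share, lists of this size say little about whether JUN or BTG1 differ from their relatives. RNA levels were not part of the table, so whether the unlisted genes were expressed in these cells was not determined.

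Other genes with the same broad role were also listed. Of 29 growth arrest and tumour suppressor genes 3 were listed (10.3%), all in the 5′ UTR. Of all protein-coding genes 2.21% had a cluster and 1.63% had one in the 5′ UTR. NF2, which encodes merlin, had 29 reads in eIF3g, 15 in eIF3d, 9 in eIF3b and 15 in eIF3a, TXNIP had 41 in eIF3d and 25 in eIF3a, and CDKN2A had 9 in eIF3g. Of 17 D-, E- and G-type cyclins and regulators of G1 3 were listed (17.6%), each for all 4 subunits. Both lists are small and were put together with earlier results of these data known. Their shares are therefore not read as a trait of such genes. CCNG1, a p53-induced cyclin, had 60 reads in eIF3g, 111 in eIF3d, 155 in eIF3b and 75 in eIF3a. CDC25A, a phosphatase of the G1 to S transition, had 119 reads in eIF3g, 85 in eIF3d, 10 in eIF3b and 34 in eIF3a, and CCND2, a D-type cyclin, had 35, 24, 49 and 31 in the same order. None of these 3 had as low a conversion count for its reads in eIF3g as JUN or BTG1: CCNG1 had 66 conversions in 60 reads, CDC25A 116 in 119 and CCND2 37 in 35. That is not particular to them, since of the 273 other 5′ UTR clusters of eIF3g 1 lay below JUN and 2 below BTG1. Of 20 markers of other cell types 0 had a cluster, and at 2.21% of genes a list of this size says little about which cells were used.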

How the data were processed

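The table gives, per the file headers, 1 line per cluster and subunit with gene, position, strand, annotation, reads and T-to-C conversions. Reads and conversions are whole-number counts that the authors deposited without scaling. Per the submitters' processing notes, hg19, cutadapt, Bowtie and bedtools were used, and the cluster caller and the way the 3 replicates were combined are not stated there. JUN and BTG1, the gene lists and the comparisons were chosen with earlier results of these data known. Same-strand clusters with an overlap of 1 nt or more formed 558 loci, of which 173 were listed for all 4 subunits. Shares, places among loci and ratios carry exact binomial intervals, and conversions exact Poisson intervals, computed with scipy 1.17.1 in Python 3.11.15. Joining, ratios and places were tested on simulated data. With 1 value per subunit no p-value was computed. Depth per library is unknown, and no sequence of the clusters was used. Genes named were JUN, BTG1, their neighbours in rank, the 5 nearest loci in pattern and up to 4 members per list. Of 479 gene names 450 matched the RefSeq table of GRCh38, used for names only. Alternatives were other denominators, annotations, units and pseudocounts. One further gene list is not reported here.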

Additional observations from a re-analysis of the deposited data

How the results depend on the processing

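Ranks among genes by summed reads, places of the ratios among genes, list counts limited to 5′ UTR clusters and the 5 nearest loci with a pseudocount of 0.1 stayed within the counting intervals or within 1.5 times of the reported values. No ratio past 2-fold changed direction. Once scaled by 5′ UTR reads, however, that of JUN for eIF3d over eIF3a was 1.70, under 2-fold. That of JUN for eIF3d over eIF3b was 2.00 after rounding and no longer passed 2-fold. With reads in 5′ UTR clusters as denominator, the share of JUN was 13.6% in eIF3g, 2.38% in eIF3d, 1.19% in eIF3b and 1.40% in eIF3a, and that of BTG1 24.4%, 18.8%, 4.43% and 6.96%, so the highest BTG1 share lay in eIF3g and no longer in eIF3d. Without EIF3A and noncoding RNA the JUN share was 7.48% in eIF3g, 1.88% in eIF3d and 0.828% in eIF3b, and the BTG1 share was 13.4% in eIF3g, 14.8% in eIF3d, 3.08% in eIF3b and 5.06% in eIF3a. Among 5′ UTR clusters BTG1 ranked 1 in eIF3g and 2 in eIF3b. Scaled by 5′ UTR reads, the JUN ratios were 11.4 for eIF3g over eIF3b, 9.69 for eIF3g over eIF3a and 2.00 for eIF3d over eIF3b, and the BTG1 ratios were 1.30 for eIF3g over eIF3d, 5.50 for eIF3g over eIF3b, 3.50 for eIF3g over eIF3a, 4.24 for eIF3d over eIF3b, 2.70 for eIF3d over eIF3a and 0.637 for eIF3b over eIF3a. Among 5′ UTR loci, the ratio of JUN was at percentile 99.5 for eIF3g over eIF3d and 100 for eIF3g over eIF3b and over eIF3a, and that of BTG1 at 98.1 for eIF3g over eIF3b, 97.4 for eIF3g over eIF3a and 99.3 for eIF3d over eIF3b. Counted as end minus start plus 1, widths were 34 nt for JUN, 29 in eIF3d, and 84, 82, 83 and 114 nt for BTG1 in eIF3g, eIF3d, eIF3b and eIF3a. Conversions per read and 100 nt of width were 0.248, 0.250, 2.42 and 1.71 for JUN and 0.114, 0.00985, 0.269 and 0.0957 for BTG1, in the same order. Among 5′ UTR clusters, conversions per read lay at percentile 0.366, 6.52, 7.18 and 6.32 for JUN, and at 0.733 in eIF3g, 0.513 in eIF3b and 0.791 in eIF3a for BTG1. Among clusters with at least 100 reads of any annotation they lay at 39.0, 74.2, 20.0 and 19.2 for JUN and at 41.5 in eIF3g, 11.4 in eIF3b and 7.69 in eIF3a for BTG1. With conversions in place of reads, JUN over BTG1 was 0.483 in eIF3g, 1.11 in eIF3d, 0.976 in eIF3b and 1.05 in eIF3a. The causes of these shifts were not tested beyond the change of denominator or set. No paired analysis was possible because the table has no replicate column, and leaving out a replicate was not run for the same reason.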

Other observations

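Conversions compared between subunits, a comparison chosen after seeing the data, placed the genes differently than reads did. For eIF3g over eIF3a, JUN had 142 conversions in eIF3g and 78 in eIF3a, a ratio of 1.82 (1.37 to 2.43), above 206 of 283 shared loci, where its reads gave 12.6 and lay above 279. BTG1 had 294 conversions in eIF3g and 74 in eIF3a, a ratio of 3.97 (3.07 to 5.20), above 261 of 283, against 4.55 and 266 for its reads. Over eIF3b the eIF3g conversions were 1.77 times as many for JUN (1.34 to 2.36), above 154 of 232 loci, and 3.59 times for BTG1 (2.80 to 4.64), above 204. Over eIF3d they were 7.10 times as many for JUN (4.43 to 12.0), above 191 of 292 loci, where its reads lay above 279, and 16.3 times for BTG1 (10.2 to 27.9), above 246, where its reads lay above 202. In eIF3g over eIF3b and over eIF3a, JUN was thus further out than BTG1 by reads, and BTG1 further out than JUN by conversions. For eIF3d over eIF3a the conversions gave 0.256 for JUN (0.149 to 0.423) and 0.243 for BTG1 (0.137 to 0.411), near the median locus at 0.222. The reads of both genes, as deposited, were at least 2-fold higher in eIF3d. For eIF3b over eIF3a the ratio was 1.03 for JUN (0.741 to 1.42) and 1.11 for BTG1 (0.799 to 1.54), with a median locus at 0.875. Since reads and conversions order these genes differently, which of them measures contact with eIF3 was not determined from the table.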
